A study of Mus musculus with 9 samples.

Results

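Matrix metalloproteinases (MMPs), ADAMTS proteases and tissue inhibitors of metalloproteinases (TIMPs) were followed in mouse nasal mucosa. Members were all genes of the table whose mouse symbol begins with Mmp, Adamts or Timp followed by a digit, which gave 45 of 21930 genes: 22 MMPs, 19 ADAMTS genes and 4 TIMPs. The study compared 3 groups of wild-type (WT) mice with 3 libraries each. Control mice carry the treatment label "none". The papain group, labelled eCRS for eosinophilic chronic rhinosinusitis, received intranasal papain, a plant cysteine protease, at 20 µg per dose in a volume of 20 µl, from day 0 to day 2 and from day 7 to day 11. The exosome group, labelled eCRS_Exo, received the same papain and also intranasal MSC-Exos, exosomes derived from mesenchymal stem cells, on days 7 to 11. Mice were killed on day 12. The protocol gives PBS as the alternative to exosomes but does not say which groups received it, and no dose of exosomes, age, sex or strain is stated. The title names inflammatory infiltration and tissue remodelling as the subject of the study. Nothing in the labels ties each library to its own mouse. The p-values therefore reflect only how far these libraries vary, which may be technical.

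MMPs are zinc-dependent endopeptidases that are made as inactive proenzymes and cut collagens, gelatins, proteoglycans, cytokines and each other. ADAMTS enzymes are secreted relatives with thrombospondin repeats, which trim procollagens, cleave aggrecan and versican, or act on single substrates such as von Willebrand factor. TIMPs bind the active site of these enzymes, and the balance of MMP-9 and TIMP-1 is a common readout of remodelling in chronic rhinosinusitis. Transcript levels do not report proenzyme activation or inhibition.

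The proximal promoters of the members are shown first, because most of the collagenase and stromelysin genes stand side by side. Mmp13, Mmp12, Mmp1b, Mmp3, Mmp10, Mmp8, Mmp27, Mmp20 and Mmp7 lie within 427 kb of chromosome 9 (GRCm38, chr9:7272514-7699585). RefSeq promoters (GRCm38.p6, 250 bases before to 50 bases after the annotated start) were at hand for 31 members, as 34 promoters. The other 14 members were Adamts4, Adamts5, Adamts6, Adamts7, Adamts8, Adamts10, Adamts15, Adamts16, Adamts19, Mmp2, Mmp9, Mmp16, Mmp17 and Mmp19. An AP-1 motif, written TGANTCA and searched on both strands, is the recognition sequence of Fos and Jun dimers. It was present in the promoters of 7 of these 9 neighbours, all but Mmp8 and Mmp27, and in none of the 22 other members with a promoter. Counted by promoter, 7 of the 11 promoters of these neighbours held it, against 7.81% of all 32851 promoters of the same length. The windows hold the motif in capitals, 10 bases on each side in lower case, and run 5′ to 3′ on the chromosome's plus strand except for Mmp1b, a minus-strand gene that is read on its own strand.
Mmp13 (chr9:7272469-7272495): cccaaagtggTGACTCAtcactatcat
Mmp12 (chr9:7347320-7347346): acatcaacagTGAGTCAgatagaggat
Mmp1b (chr9:7388103-7388129): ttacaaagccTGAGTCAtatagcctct
Mmp3 (chr9:7445766-7445792): gaagcaattaTGAGTCAgttttcgggt
Mmp10 (chr9:7502269-7502295): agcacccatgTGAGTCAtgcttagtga
Mmp20 (chr9:7628126-7628152): atttgagacaTGAATCAtcacttacag
Mmp7 (chr9:7692017-7692043): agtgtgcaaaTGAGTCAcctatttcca
The motif began 35 bases before the start in Mmp13, 44 in Mmp12, 46 in Mmp3, 63 in Mmp10 and Mmp7, 93 in Mmp1b and 95 in Mmp20. Mmp12 has a promoter at each of its RefSeq starts, and the match belongs to the downstream one (chr9:7347124-7347423), while the promoter at the start of the gene (chr9:7344147-7344446) has none. In Mmp7 the match belongs to the upstream promoter (chr9:7691840-7692139). Its downstream promoter (chr9:7692091-7692390) has none and holds the ETS and RUNX letters listed below for this gene. Only 3 of the 9 neighbours, Mmp13, Mmp12 and Mmp3, were expressed above the level needed for a test. A match describes these letters and is not evidence that a factor binds there.

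The 250 bases before the start are given whole for Mmp13 and Timp1, the MMP and the TIMP that were higher after papain on both scales used below. In Mmp13 the capitals mark the AP-1 motif and a RUNX motif (TGTGGTT, here on the other strand, in 5.27% of all promoters). In Timp1 they mark ETS motifs (CAGGAAG, in 13.3% of all promoters), of which a further match lay 39 bases after the start. ETS letters were found in 7 of the 31 members, Adamts12, Mmp1b, Mmp3, Mmp7, Timp1, Timp3 and Timp4, and RUNX letters in Mmp13, Mmp27 and Mmp7. The NF-kappa-B letters, GGGNN followed by TTTCC, were in 0 of the 31 and in 1.63% of all promoters, and the STAT letters TTCNNNGAA were in Mmp23 and in 8.30% of all promoters. ETS and RUNX letters overlap neither each other nor the AP-1 letters in these stretches.
Mmp13, plus strand (chr9:7272264-7272513): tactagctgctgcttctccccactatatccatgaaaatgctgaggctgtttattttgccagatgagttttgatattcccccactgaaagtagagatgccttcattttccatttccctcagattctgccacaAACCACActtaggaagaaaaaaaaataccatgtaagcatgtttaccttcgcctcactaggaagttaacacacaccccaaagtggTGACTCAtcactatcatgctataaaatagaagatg
Timp1, plus strand (chrX:20869916-20870165): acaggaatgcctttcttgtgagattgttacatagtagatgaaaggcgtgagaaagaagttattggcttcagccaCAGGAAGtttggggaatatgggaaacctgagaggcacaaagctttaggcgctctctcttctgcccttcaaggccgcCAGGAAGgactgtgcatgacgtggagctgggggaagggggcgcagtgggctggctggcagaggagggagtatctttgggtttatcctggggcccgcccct

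Levels are FPKM, fragments scaled to transcript length and to the library's total, so values can be set side by side between genes. The libraries differed in scale. The 15 highest genes held 77.0% to 78.6% of all FPKM in controls, 64.7% to 77.8% after papain and 38.2% to 64.3% with exosomes, and the rest of the table moved the opposite way. Each comparison is therefore given as deposited and after median-of-ratios scaling, which divided libraries by factors of 0.71 to 1.75. Papain library 2 had the lowest factor of all 9 (0.71, controls 0.763 to 0.765). Controls 2 and 3 and exosome library 3 held enamel transcripts such as Amelx and Ambn, described with Mmp20. Depth, estimated roughly from the smallest steps between values, was 15.3 M to 25.3 M fragments (M, mega). Markers of sustentacular cells and Bowman glands, of olfactory sensory neurons and of ciliated cells were present in all libraries, with bone, cartilage and blood cell markers beside them, so the label nasal mucosa covers a mixed tissue. In such bulk tissue fewer cells of a type and less RNA per cell cannot be told apart.

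Of the 45 members, 16 reached 1 FPKM in at least 3 libraries and were tested: 9 MMPs, 3 ADAMTS genes and 4 TIMPs. Mmp13, a collagenase made by bone and cartilage cells and stromal fibroblasts, had the highest mean over the 9 libraries, at 48.5 FPKM. Timp2 at 25.1, the gelatinase Mmp2 at 22.1, Timp3 at 19.6 and Timp1 at 13.004 came next, followed by Mmp9 at 11.4, Mmp14 at 10.7 and Mmp15 at 7.49. The other 8 tested members lay between 1.13 for Mmp3 and 3.04 for Mmp12. Within single libraries the order shifted. In controls Mmp13 (24.5 ± 2.6, SD, n = 3), Mmp2 (18.7 ± 1.0), Timp2 (18.7 ± 0.737) and Timp3 (17.6 ± 0.677) were close together, and Timp2, Mmp2 and Timp3 did not differ beyond their spread. In the papain group Mmp13 stood at 70.3 ± 32.2 FPKM, against 21.5 ± 4.58 for Timp2, the next highest.

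**Figure D1:**
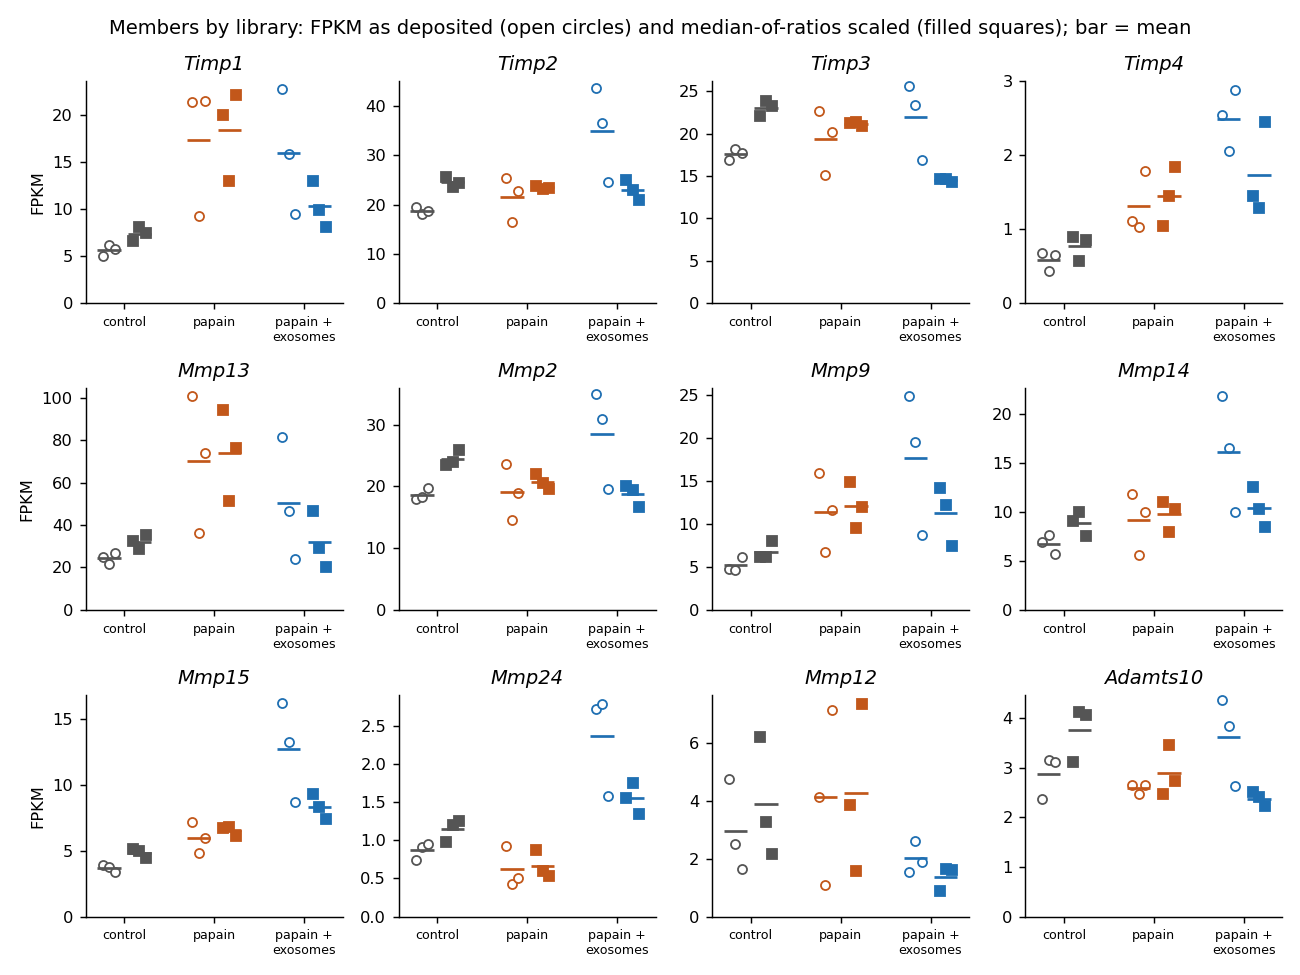
Level of 12 members in each library on a linear axis from 0, as deposited (FPKM, open circles) and after median-of-ratios scaling (filled squares), with bars at the group means. Scaled Timp3 lies at 14.4 to 14.7 in the exosome libraries and at 20.9 or more in all others, and scaled Mmp13 is highest in papain libraries 1 and 3.

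Papain against control gave 2 of the 16 tested members higher and none lower at an adjusted p under 0.05 as deposited, Mmp13 and Timp1 (limma with Benjamini-Hochberg adjustment over all 12738 genes tested). Over all genes 3.01% were higher and 0.518% lower. After scaling 3 were higher, with Mmp15 added, and none lower, against 5.77% and 4.15% of 12507 genes. At an unadjusted p under 0.05 there were 5 members as deposited and 8 scaled. The median log2 change of the tested members was 0.19 as deposited and 0.01 scaled, and that of all genes was 0.19 and -0.00. Libraries of papain and control did not overlap for 5 members on the higher side and 0 on the lower as deposited (20.7% and 2.42% of all genes), and for 5 and 3 scaled (15.8% and 14.7%).

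Exosomes with papain against papain gave 6 members higher and 0 lower as deposited, against 63% and 0.73% of all genes (63.7% in either direction). Those 6 were Mmp2, Mmp14, Mmp15, Mmp24, Timp2 and Timp4. The median over all genes rose by 0.56 in this contrast, so a deposited rise of that size does not set a member apart from the whole table. The scaling takes the typical gene as unchanged, which was not tested. After scaling 2 members were higher, Mmp15 and Mmp24, and 3 lower, Mmp13, Timp1 and Timp3, against 13.4% and 16.2% of all genes. The median of the members was 0.44 as deposited and -0.13 scaled (all genes -0.01). Groups did not overlap for 3 members higher and 0 lower as deposited (57.5% and 0.816% of all genes) and for 2 and 4 scaled (21.1% and 23.8%). On each scale 8 members had an unadjusted p under 0.05.

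Exosomes with papain against control gave 11 members higher and 0 lower as deposited, against 84.3% and 0.526% of all genes (84.8% in either direction), with a median of 0.76 for the members and 0.76 for all genes. After scaling 2 were higher, Mmp15 and Timp4, and 3 lower, Mmp2, Adamts10 and Timp3, against 12.3% and 15.6% (27.9% in either direction). The scaled medians were -0.08 for the members and 0.01 for all genes. Groups did not overlap for 7 members higher and 0 lower as deposited (87.5% and 0.589% of all genes) and for 3 and 6 scaled (23% and 23.9%). An unadjusted p under 0.05 was reached by 11 members as deposited and 10 scaled. The 3 contrasts share libraries with one another, so their values are not independent. A member that reached 1 FPKM only in the group where it is high had to differ, which holds for Mmp24 as deposited, and for Timp4, whose controls stayed under 1 FPKM on both scales. Scaled, no papain library reached 1 FPKM for Mmp24, so its scaled rise with exosomes against papain is limited in this way too. The same limit holds for falls of Mmp3 with exosomes, as no exosome library reached 1 FPKM for it on either scale. These counts describe the tested members only.

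**Figure D2:**
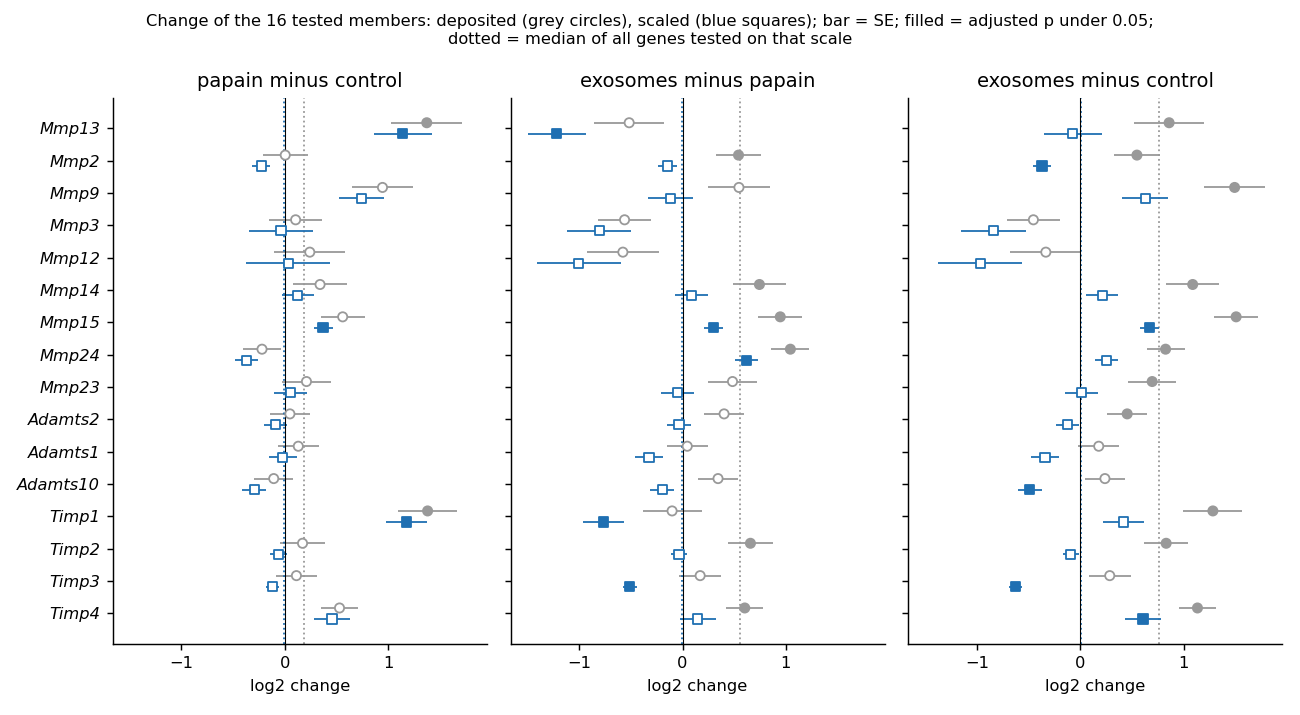
Log2 change of each of the 16 tested members in the 3 comparisons, as deposited (grey circles) and scaled (blue squares), with standard errors as bars, filled symbols for an adjusted p under 0.05, and dotted lines at the median of all genes. In both exosome comparisons the grey symbols lie to the right of the blue ones.

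Among the inhibitors, Timp1 was the member with the smallest adjusted p after papain, and Timp3 the member with the smallest adjusted p in both scaled exosome contrasts. Timp1, on chromosome X (GRCm38, chrX:20870166-20874735, plus strand), is a secreted and cytokine-inducible inhibitor. Its deposited FPKM was 5.04, 6.18 and 5.71 in the controls, 21.4, 9.25 and 21.4 after papain and 22.7, 15.8 and 9.46 with exosomes. Every papain library lay above every control library, while the exosome and papain libraries overlapped. Scaled values were 6.59, 8.10 and 7.46, then 20.0, 13.03 and 22.1, then 13.02, 9.92 and 8.04, with exosome library 3 inside the control range. Timp1 rose after papain by 1.38 ± 0.29 (SE) on the log2(FPKM + 1) scale as deposited (adjusted p = 0.00693) and by 1.18 ± 0.20 scaled (adjusted p = 0.00643). Without papain library 3 the deposited change was 1.19 (adjusted p = 0.0601). The scaled call stood in 9 of 9 single-library omissions. Between papain and exosomes Timp1 changed by -0.77 ± 0.20 scaled (adjusted p = 0.0196) and stood at -0.10 ± 0.29 as deposited (adjusted p = 0.751), so that fall depends on the scaling. It was lost without papain library 3 (-0.62, adjusted p = 0.069) or exosome library 2 (-0.75, adjusted p = 0.0589). Against control, Timp1 with exosomes was higher as deposited (1.28 ± 0.29, adjusted p = 0.000716) and stood at 0.41 ± 0.20 scaled (adjusted p = 0.143).

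Timp3 encodes the inhibitor that is held in the matrix and also blocks several ADAMTS and ADAM enzymes. It lies on chromosome 10 (chr10:86300372-86349506, plus strand). As deposited it read 16.9, 18.2 and 17.8 FPKM in controls, 22.7, 15.2 and 20.3 after papain and 25.7, 23.3 and 16.9 with exosomes, and the groups overlapped. Scaled, the controls were at 22.1, 23.8 and 23.2, the papain libraries at 21.2, 21.4 and 20.9 and the exosome libraries at 14.7, 14.6 and 14.4. Scaled exosome libraries were below all 6 others. The scaled change with exosomes was -0.51 ± 0.06 against papain (adjusted p = 0.00225) and -0.63 ± 0.06 against control (adjusted p = 0.000673). Both calls stood in 9 of 9 omissions, with changes of -0.52 to -0.50 and -0.65 to -0.60. As deposited the direction was the other way, 0.17 ± 0.20 (adjusted p = 0.444) and 0.28 ± 0.20 (adjusted p = 0.186), while the median gene rose by 0.56 and 0.76. Papain against control gave 0.11 ± 0.20 as deposited and -0.12 ± 0.06 scaled, neither past the threshold.

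Timp2, the inhibitor that takes part with membrane-type MMP-14 in activating pro-MMP-2, followed the scale of the library closely. It lies on chromosome 11 (chr11:118301069-118355740, minus strand). Deposited FPKM was 19.5, 18.0 and 18.6 in controls, 25.4, 16.5 and 22.7 after papain and 43.7, 36.6 and 24.6 with exosomes. Scaled, the 9 values ran from 20.9 to 25.5, with group means of 24.5, 23.5 and 22.9. The deposited rises with exosomes were 0.66 ± 0.22 against papain (adjusted p = 0.0143) and 0.83 ± 0.22 against control (adjusted p = 0.00208), and the scaled changes were -0.03 ± 0.08 and -0.09 ± 0.08 (adjusted p = 0.774 and 0.4). The rise against papain was lost without papain library 2 (0.48, adjusted p = 0.0613), exosome library 1 (0.48, 0.0946) or exosome library 2 (0.61, 0.0505).

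Timp4, the inhibitor with the most restricted expression of the family, was the lowest of the 4. It lies on chromosome 6 (chr6:115241892-115252205, minus strand). FPKM was 0.684, 0.43 and 0.655 in controls, 1.12, 1.03 and 1.79 after papain and 2.54, 2.06 and 2.88 with exosomes. The deposited values of the 3 groups did not overlap. Scaled values were 0.895, 0.564 and 0.855, then 1.05, 1.45 and 1.85, then 1.45, 1.29 and 2.45, with papain and exosomes overlapping and both above control. Exosomes against control gave rises of 1.13 ± 0.18 as deposited (adjusted p = 8.42e-05) and 0.61 ± 0.17 scaled (adjusted p = 0.0301), or 1.92 and 1.04 with a pseudocount of 0.1. No control reached 1 FPKM, so the gene passed the filter through the other groups. The scaled call was lost in 5 of 9 omissions: control library 1 (0.67, adjusted p = 0.0563), 2 (0.53, 0.0847) or 3 (0.65, 0.065) and exosome library 1 (0.65, 0.0628) or 3 (0.42, 0.0669). Against papain the deposited rise was 0.60 ± 0.18 (adjusted p = 0.00806) and the scaled change 0.15 ± 0.17 (adjusted p = 0.552). Papain against control stood at 0.53 ± 0.18 as deposited and 0.46 ± 0.17 scaled (adjusted p = 0.114 and 0.13). The deposited value passed without papain library 2 (0.62, adjusted p = 0.0376) or exosome library 3 (0.53, 0.0497).

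Of the 4 TIMP genes 3 lie inside synapsin genes on the opposite strand, Timp1 in Syn1, Timp3 in Syn3 and Timp4 in Syn2. Synapsins are neuronal vesicle proteins. The strand setting of the quantification is not given in the sources used here, so reads of overlapping partners cannot be told apart. Syn1 stood at means of 0.870, 0.866 and 3.45 FPKM in control, papain and exosome libraries, Syn3 at 0.215, 0.355 and 0.661 and Syn2 at 2.13, 1.4996 and 5.20. Annotated exons overlap for Timp3 with Syn3 and Timp4 with Syn2 and not for Timp1 with Syn1. Syn2 had a higher mean than Timp4 in all 3 groups, and the part of Syn2 reads in the Timp4 values was not tested.

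Mmp13 was the MMP that rose after papain on both scales. The enzyme, collagenase-3, cleaves fibrillar collagens and is made by osteoblasts, hypertrophic chondrocytes and activated fibroblasts (chr9:7272514-7283331, plus strand). Its FPKM was 24.7, 21.7 and 26.9 in controls, 100.6, 36.4 and 74.0 after papain and 81.4, 46.5 and 23.9 with exosomes. Papain libraries were all above controls, and exosome library 3 lay within the control range. Scaled values were 32.4, 28.5 and 35.2 in controls, 94.1, 51.3 and 76.1 after papain and 46.7, 29.1 and 20.3 with exosomes, which left no overlap between papain and either other group. The rise after papain was 1.37 ± 0.34 as deposited (adjusted p = 0.0252) and 1.14 ± 0.28 scaled (adjusted p = 0.0326).

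That call rests on few libraries. As deposited it was lost without control 2 (1.30, adjusted p = 0.0981) or papain library 3 (1.28, 0.122). Scaled it was lost without control 1 (1.16, 0.0863), control 2 (1.06, 0.109), control 3 (1.21, 0.0793), papain library 1 (0.95, 0.0771) or papain library 3 (1.10, 0.104). Over both scales the omissions gave rises of 0.95 to 1.78. With exosomes against papain Mmp13 stood at -0.52 ± 0.34 as deposited (adjusted p = 0.181) and fell by 1.22 on the log2 scale after scaling (SE 0.28, adjusted p = 0.0131), a call that stood in 9 of 9 omissions. As deposited the fall passed without papain library 2 (-0.92, adjusted p = 0.0288) or exosome library 1 (-0.94, 0.0292). Against control, Mmp13 with exosomes was 0.86 ± 0.34 higher as deposited (adjusted p = 0.0259), which was lost without control 2 (0.78, 0.065) or exosome library 1 (0.44, 0.209), and was at -0.07 ± 0.28 scaled (adjusted p = 0.866). The scaled means were 32.0 ± 3.35 in control and 32.0 ± 13.4 with exosomes, with a wider spread in the latter.

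Mmp13 supplied 35.2%, 32.3% and 37.4% of the summed FPKM of the 22 MMPs in the controls, 58.7%, 48.9% and 54.0% after papain and 42.0%, 32.9% and 29.7% with exosomes. A share within a library does not depend on the scaling, and here papain libraries lay above all 6 others. Group means were 35.0 ± 2.55%, 53.9 ± 4.88% and 34.9 ± 6.41%. With 3 libraries against 3 an exact two-sided permutation test cannot go below p = 0.1, so shares and ratios are given without a test. Mmp2 gave 26.7%, 15.7% and 21.4% of the MMP sum in the same order of groups.

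**Figure D3:**
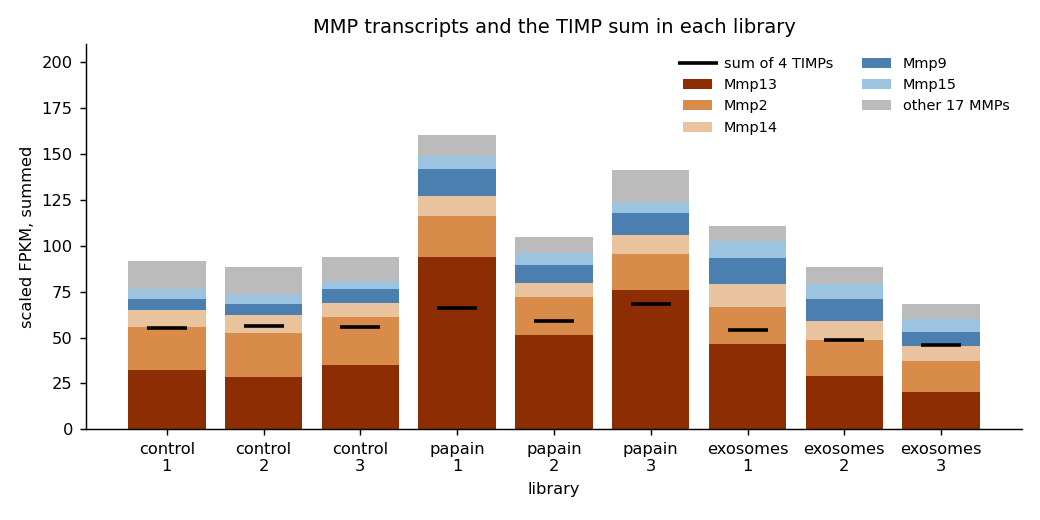
Summed scaled FPKM of the 22 MMPs in each library as stacked bars from 0, split into Mmp13, Mmp2, Mmp14, Mmp9, Mmp15 and the other 17, with the sum of the 4 TIMPs as a black dash. The MMP sum is highest in papain libraries 1 and 3, where Mmp13 makes up 58.7% and 54.0% of it.

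The other collagenases were low. Mmp8, neutrophil collagenase, whose protein is stored in granules made before neutrophils leave the marrow, ranged from 0.13 to 0.711 FPKM, with scaled values of 0.17 to 0.358 in controls, 0.577 to 0.732 after papain and 0.126 to 0.525 with exosomes. As deposited its papain and exosome libraries overlapped, so their separation depends on the scaling. Mmp8 did not reach the level for a test, and its values are too low for a comparison of groups. Mmp1b, a mouse relative of interstitial collagenase, was listed at 0 in all 9 libraries.

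The gelatinases Mmp2 and Mmp9 cut denatured collagen and basement membrane. Mmp2, largely a product of fibroblasts (chr8:92827291-92853420, plus strand), had FPKM of 17.9, 18.2 and 19.8 in controls, 23.6, 14.6 and 19.0 after papain and 34.9, 30.9 and 19.6 with exosomes. Scaled values were 23.5, 23.9 and 25.9, then 22.04, 20.6 and 19.5, then 20.0, 19.4 and 16.7, so both papain groups lay below the controls. Mmp2 was called in opposite directions by the scales for exosomes against control, 0.55 ± 0.22 as deposited (adjusted p = 0.0271) and -0.37 ± 0.09 scaled (adjusted p = 0.015). The median gene stood at 0.76 and 0.01, the difference that the scaling removes. The deposited call was lost without control 1 (0.52, adjusted p = 0.071), control 2 (0.53, 0.0661), exosome library 1 (0.38, 0.141) or 2 (0.47, 0.0914), and the scaled call without control 3 (-0.33, 0.0581). Exosomes against papain gave 0.54 ± 0.22 as deposited (adjusted p = 0.0381), lost without papain library 2 (0.37, 0.149) or 3 (0.55, 0.0709) or exosome library 1 (0.38, 0.187) or 2 (0.46, 0.125), and -0.14 ± 0.09 scaled (adjusted p = 0.241). Papain against control was at 0.01 ± 0.22 as deposited and -0.23 ± 0.09 scaled (adjusted p = 0.991 and 0.139).

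Mmp9, made by neutrophils, macrophages and osteoclasts (chr2:164940780-164955850, plus strand), read 4.71, 4.67 and 6.11 FPKM in controls, 15.9, 6.76 and 11.6 after papain and 24.8, 19.5 and 8.69 with exosomes. Every papain and exosome library was above every control as deposited. Scaled, the values were 6.16, 6.13 and 7.99, then 14.9, 9.52 and 11.9, then 14.2, 12.2 and 7.39, with exosome library 3 inside the control range. Papain against control gave 0.95 ± 0.30 as deposited and 0.74 ± 0.22 scaled (adjusted p = 0.0901 and 0.0618), which misses the threshold on both scales. It passed as deposited without papain library 2 (1.25, adjusted p = 0.0122), exosome library 1 (0.0495), 2 (0.0383) or 3 (0.00821), and scaled without exosome library 3 (0.0181). In the exosome omissions the change stayed at 0.95 as deposited and 0.74 scaled. Exosomes against papain stood at 0.55 ± 0.30 and -0.12 ± 0.22 (adjusted p = 0.111 and 0.714). The deposited value passed without papain library 1 (0.80, 0.0135) or exosome library 3 (0.96, 0.00165). Exosomes against control gave a rise of 1.49 ± 0.30 as deposited (adjusted p = 0.000351) and 0.63 ± 0.22 scaled (adjusted p = 0.0586), the latter passing without papain library 1 (0.0487), papain library 2 (0.0499) or exosome library 3 (0.88, 0.00731).

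Membrane-type MMPs are held at the cell surface, where they activate other MMPs and cut pericellular matrix. Mmp15 was the member called in most contrasts, higher in all 3 after scaling and in both exosome contrasts as deposited (chr8:95352268-95375080, plus strand). FPKM was 3.93, 3.81 and 3.39 in controls, 7.23, 4.82 and 5.98 after papain and 16.2, 13.3 and 8.70 with exosomes. Scaled values were 5.14, 4.996 and 4.43, then 6.76, 6.79 and 6.16, then 9.30, 8.33 and 7.40. On either scale the 3 groups did not overlap, with papain above control and exosomes above papain. The scaled steps were 0.37 ± 0.09 for papain against control (adjusted p = 0.0326), 0.30 ± 0.09 for exosomes against papain (adjusted p = 0.0356) and 0.67 ± 0.09 for exosomes against control (adjusted p = 0.00215). As deposited they were 0.56 ± 0.21 (adjusted p = 0.177), 0.95 ± 0.21 (0.00191) and 1.51 ± 0.21 (4.24e-05).

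The rise of Mmp15 with exosomes against control stood in 9 of 9 omissions on both scales, and that against papain in 9 of 9 as deposited. The single scaled steps held less often. Papain against control was lost without control 1 (0.41, adjusted p = 0.0587), 2 (0.39, 0.0799) or 3 (0.32, 0.115), papain library 1 (0.36, 0.0677), 2 (0.35, 0.0811) or 3 (0.41, 0.0638) or exosome library 2 (0.37, 0.0501). Exosomes against papain was lost without papain library 1 (0.31, 0.0538), 2 (0.32, 0.06) or 3 (0.26, 0.112) or exosome library 1 (0.22, 0.132) or 2 (0.29, 0.095). As deposited, papain against control passed without papain library 2 (0.69, 0.0436) or exosome library 3 (0.56, 0.048).

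Mmp14, the main activator of pro-MMP-2 on stromal cells (chr14:54431612-54445364, plus strand), read 6.93, 7.63 and 5.75 FPKM in controls, 11.8, 5.65 and 10.03 after papain and 21.9, 16.6 and 9.999 with exosomes. Scaled, the 9 values lay between 7.52 and 12.5 and all groups overlapped. The deposited rises with exosomes, 0.74 ± 0.26 against papain (adjusted p = 0.0188) and 1.09 ± 0.26 against control (adjusted p = 0.0011), became 0.09 ± 0.16 and 0.21 ± 0.16 after scaling (adjusted p = 0.708 and 0.328). The deposited call against papain was lost without papain library 2 (0.46, 0.117) or exosome library 1 (0.50, 0.123).

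Mmp24, a membrane-type MMP expressed chiefly in neurons (chr2:155775342-155818366, plus strand), was lowest after papain. FPKM was 0.748, 0.915 and 0.956 in controls, 0.927, 0.424 and 0.512 after papain and 2.71, 2.79 and 1.58 with exosomes. Scaled values were 0.979, 1.20 and 1.25, then 0.867, 0.597 and 0.527, then 1.55, 1.75 and 1.35, and on this scale no groups overlapped. Exosomes against papain gave a rise of 0.62 ± 0.11 scaled (adjusted p = 0.00561), which stood in 9 of 9 omissions and was 1.13 with a pseudocount of 0.1. The deposited rise was 1.04 ± 0.18 (adjusted p = 0.000554), but there the gene passed 1 FPKM in the exosome libraries alone, so it had to be high in them. Scaled, the exosome libraries and controls 2 and 3 reached 1 FPKM and no papain library did. The scaled rise against papain is therefore not free of the filter either. Against control the values were 0.82 ± 0.18 as deposited (adjusted p = 0.000722) and 0.25 ± 0.11 scaled (adjusted p = 0.115). Papain against control was at -0.22 ± 0.18 as deposited and -0.37 ± 0.11 scaled (adjusted p = 0.549 and 0.065), and the scaled value passed without papain library 1 (-0.45, adjusted p = 0.0358). An overlapping gene on the opposite strand, BC029722, shares exon sequence with Mmp24 and stood at means of 4.17, 5.40 and 9.78 FPKM in control, papain and exosome libraries.

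Mmp12, the macrophage metalloelastase, had a wide spread within the control and papain groups (chr9:7344381-7369499, plus strand). FPKM was 4.75, 2.50 and 1.65 in controls, 4.14, 1.11 and 7.14 after papain and 1.55, 2.61 and 1.89 with exosomes. Its deposited ranges overlapped in every pair of groups. Scaled exosome values were 0.887, 1.64 and 1.61, against 6.21, 3.28 and 2.16 in controls and 3.87, 1.57 and 7.35 after papain. Exosomes against papain stood at -0.58 ± 0.34 as deposited and -1.003 ± 0.41 scaled (adjusted p = 0.141 and 0.0878) and passed without papain library 2, the lowest of its group (-1.12, 0.00677, and -1.46, 0.0243). Exosomes against control stood at -0.97 ± 0.41 scaled (adjusted p = 0.0993), which also passed without papain library 2 (-0.98, 0.0423). As deposited it stood at -0.33 ± 0.34 (adjusted p = 0.358). Without the 3 libraries that held enamel transcripts, the deposited changes with exosomes were -0.92 against the 1 remaining control and -0.55 against papain.

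Mmp3, stromelysin-1, a fibroblast enzyme that activates other MMPs, had means of 1.28 ± 0.818 FPKM in controls, 1.49 ± 1.07 after papain and 0.608 ± 0.226 with exosomes. Control library 1 (2.20) and papain library 3 (2.73) carried the highest values. No exosome library reached 1 FPKM on either scale, so the gene passed the filter through the other groups. As deposited it passed the filter in only 6 of the single-library omissions. Exosomes against papain stood at -0.56 ± 0.25 as deposited and -0.81 ± 0.31 scaled (adjusted p = 0.0589 and 0.0759). With a pseudocount of 0.1 in place of 1 the scaled falls were larger and passed, at -1.61 against papain (adjusted p = 0.0431) and -1.66 against control (0.0413), and the deposited value against papain was -1.02 (0.055). As deposited it passed without control 2 (-0.56, 0.049), papain library 1 (-0.70, 0.0163), papain library 2 (-0.76, 0.0328) or exosome library 3 (-0.66, 0.0276), and scaled without control 1 (-0.82, 0.0474) or papain library 1 (-0.9996, 0.0499). Against control the scaled value was -0.84 ± 0.31 (adjusted p = 0.0686), passing without control 2 (-1.10, 0.0456) or papain library 3 (-0.84, 0.0426), and the deposited value passed without control 2 (-0.66, 0.0305). Mmp23, a membrane-anchored MMP without a hemopexin domain, had scaled means of 2.23 ± 0.315, 2.35 ± 0.242 and 2.3 ± 0.746. Its deposited rise against control with exosomes (0.69 ± 0.24, adjusted p = 0.0111) was lost without exosome library 1 (0.46, 0.0814) and was 0.01 after scaling. Against papain the deposited value passed without papain library 1 (0.59, 0.0338) or exosome library 3 (0.83, 0.000522).

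Few ADAMTS genes were expressed at a testable level, and none was called after papain. Adamts10, which binds fibrillin microfibrils, was the highest of them (chr17:33524204-33553782, plus strand). FPKM was 2.38, 3.15 and 3.11 in controls, 2.65, 2.46 and 2.65 after papain and 4.36, 3.83 and 2.63 with exosomes. Scaled values were 3.11, 4.12 and 4.06, then 2.48, 3.47 and 2.73, then 2.50, 2.40 and 2.24, with every exosome library below every control. The scaled change against control was -0.49 ± 0.12 (adjusted p = 0.0154), lost without control 3 (-0.44, 0.0586). As deposited it was 0.24 ± 0.19 (adjusted p = 0.238) and passed without exosome library 3 (0.40, 0.0379). Against papain the deposited value was 0.34 ± 0.19 (adjusted p = 0.114) and passed without the same library (0.51, 0.0139).

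Adamts2, a procollagen N-proteinase that trims type I collagen, had scaled means of 1.46 ± 0.179, 1.31 ± 0.172 and 1.27 ± 0.256. Its deposited rise with exosomes against control (0.45 ± 0.19, adjusted p = 0.034) was lost without control 1 (0.40, 0.102), control 2 (0.46, 0.0697), exosome library 1 (0.33, 0.147) or 2 (0.36, 0.139) and was -0.12 ± 0.11 scaled. Against papain the deposited value passed without papain library 1 (0.50, 0.0343) or exosome library 3 (0.62, 0.00335). Adamts1, a versican- and aggrecan-cleaving enzyme, had scaled means of 1.4 ± 0.2, 1.39 ± 0.409 and 0.895 ± 0.162. It passed in no comparison with all libraries, at -0.33 ± 0.13 against papain and -0.34 ± 0.13 against control scaled (adjusted p = 0.0922 and 0.0811). The first of these passed without papain library 2 (-0.45, 0.0465) and the second without papain library 1 (-0.34, 0.0444).

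Sums and ratios over all members describe the composition of the family. The MMP sum was 91.4 ± 2.98 scaled FPKM in controls, 135 ± 28.2 after papain and 89.3 ± 21.3 with exosomes. The TIMP sum was 55.7 ± 0.570, 64.4 ± 4.78 and 49.6 ± 4.30. The ratio of MMP to TIMP transcripts, which the scaling cannot move, was 1.67, 1.57 and 1.69 in controls, 2.43, 1.77 and 2.07 after papain and 2.05, 1.82 and 1.497 with exosomes. Papain libraries were above controls, and exosome libraries overlapped both. The order depends on the most abundant member of each family. Without Mmp13 and Timp2 the means were 1.91 ± 0.0958, 1.503 ± 0.0582 and 2.15 ± 0.188, with papain lowest. ADAMTS to TIMP stood at 0.195 ± 0.0277, 0.148 ± 0.0209 and 0.169 ± 0.00997.

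Paired ratios of an enzyme and its classical inhibitor showed no common course. Mmp9 to Timp1 was 0.921 ± 0.158 in controls, 0.671 ± 0.113 after papain and 1.08 ± 0.157 with exosomes, as Timp1 was further above control than Mmp9 after papain. Mmp13 to Timp1 was 4.38 ± 0.756, 4.03 ± 0.629 and 3.01 ± 0.533. Mmp2 to Timp2 was 0.999 ± 0.0733, 0.883 ± 0.0462 and 0.814 ± 0.0272. Mmp14 to Timp2 was 0.363 ± 0.0571, 0.417 ± 0.065 and 0.454 ± 0.0471. These are ratios of transcripts per length, not of proteins.

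The 29 members under the filter were mostly below 1 FPKM in all libraries. Among stromelysins and matrilysin, Mmp10 lay at 0 to 0.396, Mmp11 at 0.544 to 1.17, Mmp19 at 0.194 to 1.27 and Mmp7 at 0 to 0.135. Among membrane-type enzymes Mmp16 lay at 0.404 to 1.25, Mmp17 at 0.0806 to 0.247 and Mmp25 at 0.0211 to 0.262. Of the other MMPs, Mmp21 lay at 0 to 0.0232, Mmp27 at 0 to 0.0349 and the epidermal Mmp28 at 0.155 to 0.875. The procollagen N-proteinases Adamts3 (0 to 0.13) and Adamts14 (0.111 to 0.353) were lower than Adamts2 in every group. These values are too low for a comparison of groups.

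Of the enzymes that cleave aggrecan and versican, Adamts9 (0.407 to 1.40), Adamts15 (0.396 to 1.54) and Adamts5 (0.391 to 0.776) were the highest under the filter. Adamts4, a classical aggrecanase, lay at 0.0767 to 0.292, Adamts20 at 0.116 to 0.616 and Adamts8 at 0 to 0.134. Adamts7 (0.0931 to 0.258) and Adamts12 (0.111 to 0.288), which cleave cartilage oligomeric matrix protein, were as low. Adamts13, the von Willebrand factor protease of liver, lay at 0 to 0.0574. Adamts6 (0.195 to 0.55), Adamts16 (0.144 to 0.485), Adamts17 (0.116 to 0.273), Adamts18 (0.0589 to 0.23) and Adamts19 (0 to 0.084) complete the family. Mmp11, Mmp19, Mmp28, Adamts4, Adamts7 and Adamts9 share exon sequence with genes on the opposite strand, and Mmp12 and Mmp1b do so with each other.

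Mmp20, enamelysin, which matures the enamel matrix in teeth (chr9:7628231-7674979, plus strand), was present in few libraries. It stood at 3.07 FPKM in control 2, 2.05 in control 3 and 0.0964 in exosome library 3, at 0.00503 in papain library 2, and was listed at 0 in the other 5. Amelx, which encodes the main enamel matrix protein amelogenin, was at 55.5, 42.3 and 76.5 in the same 3 libraries and at 0 to 0.0658 in the rest. Ambn, ameloblastin, was at 20.2, 26.9 and 19.5 there and at 0 to 0.0321 elsewhere. Dspp, made by dentin-forming odontoblasts, was at 62.6 and 39.6 in controls 2 and 3 but at 0.0380 in exosome library 3. Enam, Amtn and Klk4, the other genes of the list with an enamel role, were above 0 in the same 3 libraries, at no more than 4.68, and listed at 0 in the other 6. The seventh listed gene, Odam, did not follow them: it stood at 110.8 to 176 FPKM in all 9 libraries. The list of enamel and dentin genes was chosen after the values of Mmp20 were seen.

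**Figure D4:**
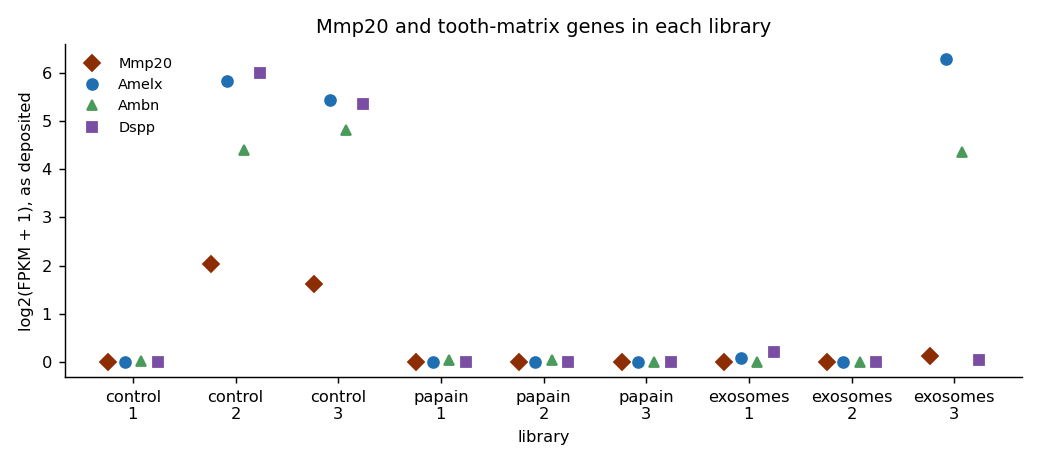
Mmp20, Amelx, Ambn and Dspp in each library as log2(FPKM + 1), one symbol per gene. Amelx and Ambn are high in controls 2 and 3 and exosome library 3, Dspp is high in both controls and near 0 in that exosome library, and all other libraries lie near 0.

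With these 3 libraries left out together, 1 control library remains, assumed to vary like the other groups. As deposited, Timp1 (1.52, adjusted p = 0.000747) and Mmp13 (1.35, 0.00731) were higher after papain. Scaled, neither passed (Timp1 1.33, 0.139, and Mmp13 1.12, 0.275), nor did Mmp15 (0.30, 0.334). Of the scaled calls for exosomes against papain, Timp3 (-0.50, 0.0132), Mmp24 (0.70, 0.0177) and Mmp15 (0.38, 0.0319) passed, while Mmp13 (-0.94, 0.0582) and Timp1 (-0.61, 0.0922) did not. Against control Timp3 (-0.56, 0.0396) and Mmp15 (0.68, 0.0394) passed, and Mmp2 (-0.24, 0.226), Adamts10 (-0.25, 0.372) and Timp4 (0.34, 0.336) did not.

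Genes that regulate MMPs were taken as a list of 19 activators and other inhibitors, of which 12 were tested. After papain Plaur, the urokinase receptor, rose on both scales (1.39 as deposited, adjusted p = 0.00103, and 1.32 scaled, adjusted p = 0.00431), and Cd44, a docking receptor for MMP-9, rose after scaling (0.46, 0.00932). The list's median was 0.20 as deposited and -0.01 scaled. Its counts of 1 of 12 higher as deposited and 2 of 12 scaled stand beside 3.01% and 5.77% of all genes. Plaur then fell with exosomes against papain on both scales (-0.56, 0.0426, and -1.03, 0.00769). Scaled, 3 of 12 were higher, Plat, Spock1 and Spock2, and 3 lower, Cd44, Plau and Plaur, against 13.4% and 16.2% of all genes. As deposited 9 were higher and 1 lower, where 63% of all genes were higher. Plat and Plau are the plasminogen activators, and Spock1 and Spock2 encode testicans, proteoglycans known as protease regulators. Against control 11 of 12 were higher as deposited, where 84.3% of all genes were, and Plat alone scaled.

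Of 9 ADAM genes, which encode membrane-bound sheddases, 7 were tested. Papain gave Adam9 and Adam10 higher on both scales, at 0.88 (adjusted p = 0.0228) and 0.93 (0.0107) as deposited and at 0.67 (0.00169) and 0.72 (0.000254) scaled. Adam17, the TNF sheddase, was higher (0.43, 0.0212) and Adam28 lower (-0.57, 0.0179) after scaling. The 2 of 7 higher as deposited stand beside 3.01% of all genes. The 3 higher and 1 lower scaled stand beside 5.77% and 4.15%. With exosomes against papain the scaled values went the other way for Adam9 (-0.47, 0.00607), Adam10 (-0.41, 0.0041) and Adam28 (0.46, 0.0202). Those 1 higher and 2 lower of 7 stand beside 13.4% and 16.2% of all genes. As deposited 4 of 7 were higher and 0 lower, a share near the 63% of all genes. Against control 7 of 7 were higher as deposited, where 84.3% of all genes were. Scaled, 2 of 7 were higher, Adam8 and Adam10, against 12.3% of all genes. Of 6 ADAMTS-like genes, which encode proteins without a protease domain, 2 were tested as deposited and 1 scaled, and limma called none after papain, where 0 had an unadjusted p under 0.05 on either scale.

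Among 20 matrix genes that these enzymes cut, 17 were tested. With limma 0 of them were called after papain as deposited, where 3.52% of all genes were called in either direction and 2 of the 17 had an unadjusted p under 0.05. Papain gave 0 higher and 7 lower scaled (Nid1, Dcn, Thbs2, Fbn1, Eln, Bgn and Col4a1, median -0.30). Dcn, decorin, a small collagen-binding proteoglycan, fell by 0.82 (SE 0.12, adjusted p = 0.00378). With exosomes against papain 5 were higher and 0 lower as deposited and 0 and 5 scaled (Dcn, Thbs2, Comp, Lum and Thbs1, median -0.22). Against control 5 were higher and 0 lower as deposited and 0 and 10 scaled, with a median of -0.45. The deposited counts of 5 of 17 stand beside 63% and 84.3% of all genes higher in these contrasts, and the deposited medians of 0.38 and 0.38 beside 0.56 and 0.76 for all genes. The scaled counts of 7, 5 and 10 lower stand beside 4.15%, 16.2% and 15.6% of all genes.

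Of 16 inducers of MMP genes, cytokines and transcription factors, 10 were tested. Papain raised Il1b (1.74, adjusted p = 0.0109 as deposited, and 1.59, 0.0282 scaled) and Junb (1.09, 0.0329, and 0.88, 0.0281). These 2 of 10 stand beside 3.01% of all genes higher as deposited and 5.77% scaled. Il1b encodes interleukin-1 beta and Junb a subunit of AP-1, the factor whose letters stand in the Mmp13 promoter above. The same letters stand in promoters of Mmp3 and Mmp12, which were at -0.04 ± 0.31 and 0.03 ± 0.41 scaled after papain. Fos was not called after papain on either scale. With exosomes against papain Fos, the partner of Jun proteins in AP-1, fell by 1.33 after scaling (adjusted p = 0.0334). Junb fell by 1.08 (0.00715) on that scale. The scaled counts of 2 of 10 lower and 0 higher stand beside 16.2% and 13.4% of all genes. The lower count is thus near the share of all genes. As deposited 4 of 10 were higher, Tgfb1, Relb, Ets2 and Jun, and 0 lower, against 63% of all genes higher. Against control 9 of 10 were higher as deposited, where 84.3% of all genes were, and Relb alone scaled. Junb stood on the same side as Mmp13 in the scaled contrasts of papain with control and exosomes with papain, and Fos in the latter. This was not tested as a relation.

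Markers of cell types that can make these enzymes are given beside them. The 6 osteoclast markers summed to 87.4 to 96.2 scaled FPKM in controls, 99.4 to 149 after papain and 71.9 to 131 with exosomes. On this scale they were highest in papain libraries 1 and 3, which also had the highest scaled Mmp13 and Timp1. Osteoclasts are named above as a source of Mmp9 and not of Mmp13. As deposited the osteoclast sum was highest in exosome libraries 1 and 2 (229 and 170, against 160 and 130 in papain libraries 1 and 3), and Mmp13 was higher in exosome library 1 (81.4) than in papain library 3 (74.0). None of the 3 tested osteoclast markers was called by limma after papain or between papain and exosomes, on either scale, and at an unadjusted p under 0.05 there were 1 and 0 of them on each scale. Of all genes 3.52% as deposited and 9.92% scaled were called in either direction after papain. Between papain and exosomes 63.7% and 29.5% were. Against control with exosomes 2 of 3 were higher as deposited, Acp5 and Ctsk, where 84.3% of all genes were, and 0 scaled. Of the 5 osteoblast markers, Ibsp and Dmp1 rose after papain on both scales, while the scaled sum ran from 106 to 286 in controls, 152 to 206 after papain, inside the control range, and 70.2 to 158 with exosomes. The 5 chondrocyte markers summed to 9.40 to 10.9 scaled FPKM in controls, 9.18 to 11.7 after papain and 6.69 to 8.71 with exosomes. The 8 neutrophil markers summed to 261 to 317, 495 to 616 and 562 to 701, with 4 of 8 higher after papain as deposited and 4 of 7 scaled. The 8 macrophage markers summed to 69.3 to 72.9, 95.5 to 118 and 100.9 to 101.8, with 4 of 8 higher after papain on both scales. Of all genes 3.01% were higher after papain as deposited and 5.77% scaled. No marker of these lists was at 0 in all libraries. The part of these cells in the values of Mmp13, Mmp9, Mmp12 and Timp1 was not tested.

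**Figure D5:**
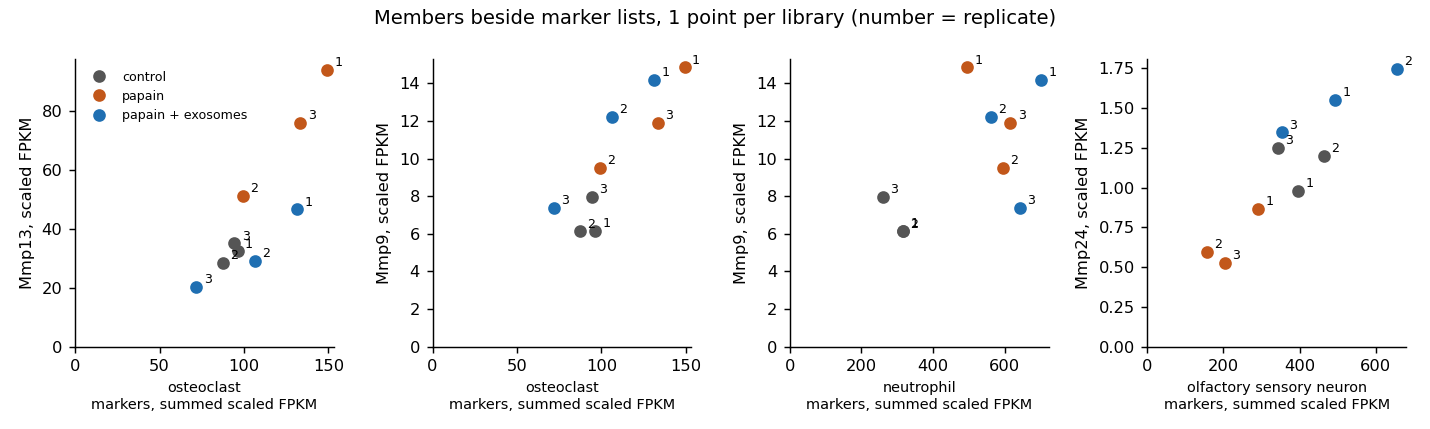
Scaled FPKM of Mmp13 and Mmp9 against the summed osteoclast markers, of Mmp9 against the summed neutrophil markers and of Mmp24 against the summed olfactory sensory neuron markers, one point per library. Papain libraries 1 and 3 are high in Mmp13 and in osteoclast markers (149 and 133), and the papain libraries are lowest in both Mmp24 and neuronal markers.

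Beside the fibroblast products Mmp2, Mmp3 and Timp3, the 7 fibroblast markers summed to 546 to 741 scaled FPKM in controls, 449 to 626 after papain and 302 to 502 with exosomes. Scaled, 2 of 7 were lower after papain, 3 of 7 with exosomes against papain and 5 of 7 with exosomes against control, and 0 were higher. Over all genes 4.15%, 16.2% and 15.6% were lower in these scaled contrasts. As deposited limma called 0 of 7 in the 3 contrasts, with 2, 0 and 0 at an unadjusted p under 0.05. Of all genes 3.01%, 63% and 84.3% were called higher there, so 0 of 7 is below the share of all genes in both exosome contrasts. Beside Mmp24, the 5 olfactory sensory neuron markers summed to 344 to 464 in controls, 156 to 291 after papain and 354 to 655 with exosomes. With exosomes against papain 5 of 5 were higher on both scales (63% and 13.4% of all genes). After papain 2 of 5, Cnga2 and Adcy3, were lower scaled (4.15% of all genes). The 5 endothelial markers summed to 5.74 to 6.45, 5.39 to 6.60 and 4.31 to 5.33. The part of fibroblasts and of neurons in the values of these members was not tested.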

How the data were processed

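Poly(A) RNA of mouse nasal mucosa was sequenced in 9 libraries, and groups and replicate numbers come from the sample titles. The authors deposited 1 table of FPKM values for 21930 Ensembl genes. Per the submitters' processing notes, fastp 0.19.4, HISAT2 and StringTie were used with mm10. Other versions, the strand setting and the annotation were not given in the sources used here. Symbols matched 21817 genes (113 had none), and coordinates come from GENCODE M21, which held 21888. Mmp1a was not analysed here.

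Values were tested as log2(FPKM + 1), which understates changes of low genes, with limma 3.58.1 (R 4.3.3) with a mean-variance trend over all 9 libraries. Genes needed at least 1 FPKM in at least 3 libraries, and p-values were adjusted over all genes tested (threshold 0.05). Scaled values were divided by a median-of-ratios factor from the 16486 genes that no library lists at 0. Depth is rough: low values within 0.05 of a whole step made up 15.5% to 18.3% (an even spread gives 10%), too few to recover reads for a count test.

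Every tested member is named. Values in every library are given for the 4 TIMPs and for members called on both scales in a comparison, and those of Mmp9, Mmp12, Mmp14 and Adamts10 were chosen after they were seen. Members and lists were chosen with earlier results of these data known. Alternatives were other scalings (quantile, TPM, median of ratios), a pseudocount of 0.1, no filter or one at 5 FPKM, fits of 2 groups, array weights, no trend, a replicate block, a log2 change of at least 1 and each library left out. Combinations with scaling and the joint omission of 3 libraries were chosen after seeing the data. On simulated data of 12738 genes, limma recovered 69, 58 and 70 of 100 genes changed 2-fold and 97, 98 and 99 of 100 changed 4-fold in the comparisons of papain with control, exosomes with papain and exosomes with control, with 7, 7 and 6 unchanged genes called. The changed genes were drawn from the better expressed ones, with the change added on the log2(FPKM + 1) scale. The simulation followed the deposited values with no shift shared by a library. These rates therefore do not cover low members, scaled values or a shift of the whole table. Tables and figures used Python 3.11.15, NumPy 2.4.6, pandas 2.3.3 and matplotlib 3.10.9.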

Additional observations from a re-analysis of the deposited data

How the results depend on the processing

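Counts of called members moved with the scaling, the filter and array weights. In this section they stand without the share of all genes called under the same setting. They therefore do not set the members apart from the whole table. Over the alternatives to the deposited values, 305 of 334 recomputed member values stood on the same side of the threshold for papain against control (6 lost, 23 gained, 0 reversed), 263 for exosomes against papain (24, 39 and 8) and 270 for exosomes against control (37, 10 and 17). A change of sign counts as reversed only where a value passed the threshold. For scaled values 205, 205 and 200 of 224 did, with 0 reversed. Mmp15 was higher with exosomes against control on both scales and in 9 of 9 omissions. Timp4 was higher on both with all libraries, but its scaled call was lost in 5 of 9 omissions and without the 3 enamel libraries (0.34, adjusted p = 0.336). A pseudocount of 0.1 brought scaled Mmp3 past the threshold against papain (-1.61, 0.0431) and control (-1.66, 0.0413). Depth limits the 29 members under the filter.

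Median-of-ratios scaling gave 2 higher and 3 lower for exosomes against papain and 2 and 3 against control, with or without a replicate block. It reversed, with or without the block, Mmp2 (-0.14), Timp2 (-0.034) and Timp3 (-0.51) against papain, and Mmp13 (-0.073), Mmp2 (-0.37), Adamts2 (-0.12), Adamts10 (-0.49), Timp2 (-0.093) and Timp3 (-0.63) against control. Quantile normalization gave 2 and 3 against papain and 2 and 2 against control, and reversed Mmp2 (-0.032) and Timp3 (-0.43) against papain and Mmp2 (-0.27), Mmp23 (-0.025), Adamts2 (-0.15), Adamts10 (-0.52) and Timp3 (-0.57) against control. Under it Mmp13 after papain was lost (1.08, adjusted p = 0.0596).

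Rescaling to TPM gave 10 higher for exosomes against papain. Without a filter 0 were higher after papain as deposited (Timp1 adjusted p = 0.13, Mmp13 0.217) and 1 was lower for exosomes against control. Scaled without a filter, 1 was lower after papain, 1 higher for exosomes against papain and 1 higher against control, with Timp1 still called after papain (0.0167) and Mmp13 not (0.065). A filter at 5 FPKM gave 7 higher for exosomes against control, fits of 2 groups 4 higher after papain. Array weights gave 10 higher and 1 lower after papain, 12 and 4 for exosomes against papain and 1 lower against control. A log2 change of at least 1 left 1 higher for exosomes against papain and 5 against control as deposited, and scaled 0 higher and 1 lower, and 0 and 0. The cause of these differences was not tested, except that a filter or threshold changes what is counted.

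Shared replicate numbers gave no sign of pairing (correlations of deviations of -0.312 to 0.141, 2 of 9 over 0.1, and 1 of 9 libraries closest to its own number). The replicate block gave 3 higher after papain, with Mmp9 added (adjusted p = 0.0449), and 1 lower for exosomes against papain, Mmp3 (-0.56, 0.0322). With scaling the block changed no call of a member. Without controls 2 and 3 and exosome library 3 together, 1 was lower for exosomes against papain and 1 against control as deposited. Scaled, 0 were higher after papain, 1 lower for exosomes against papain, and 1 higher and 1 lower against control.

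Leaving out each library gave, for papain against control, 0 to 5 higher and 0 to 0 lower as deposited and 1 to 4 and 0 to 1 scaled. The 0 was without papain library 3, and the 5 without papain library 2 or exosome library 3. For exosomes against papain it gave 2 to 9 and 0 to 3, and 1 to 2 and 2 to 5 scaled, with 2 without exosome library 1, 9 without papain library 1 or exosome library 3, and 3 and 5 lower without papain library 2. For exosomes against control it gave 6 to 12 and 0 to 1, and 1 to 3 and 1 to 4 scaled, with 6 without exosome library 1. Without the most abundant member of each family MMP to TIMP was 1.91, 1.503 and 2.15 in control, papain and exosome libraries, ADAMTS to TIMP 0.227 in control and 0.226 with exosomes, and ADAMTS to MMP 0.108 after papain.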
